A study of Rattus norvegicus with 6 samples.

Results

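The complement genes examined here were C1r, C1s, C3, C4a, Cfb, Cfd, Cd55, Cd59 and Serping1, which encode components and inhibitors of the complement cascade. They were looked up by gene name, and 8 of these 9 names matched a gene in the deposited data, out of 18923 genes in all. Cfb had no match and was not analysed here. The cells were primary chondrocytes from 24-h-old female Sprague-Dawley rats, wild type, used at passage 1 or 2. The CON group was kept for 24 h in high-glucose DMEM with 10% fetal bovine serum and penicillin-streptomycin, and no vehicle is named for it. The RA group received the same medium for 24 h with 1 µM all-trans retinoic acid, a vitamin A metabolite and ligand of nuclear receptors. Each group had 3 samples of poly(A) RNA, which the methods call independent, and the number of animals behind them is not given. The comparison asks which complement transcripts differed after RA treatment.

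Complement is a proteolytic cascade of the innate immune system. In the classical pathway, the recognition protein C1q activates the proteases C1r and C1s, which cleave C4 and C2. All pathways meet at the cleavage of C3, which the alternative pathway amplifies through factor B and factor D, and which leads to the membrane attack complex of C5 to C9. Host cells limit these steps with inhibitors, among them the secreted serpin C1 inhibitor (Serping1) and the membrane proteins CD55 and CD59. The liver makes most plasma complement, while fibroblasts, chondrocytes and macrophages can also transcribe parts of it.

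Levels are given as FPKM, in which a gene's count is divided by gene length and library total. Total counts lay between 29370025 and 38007486 per sample. CON sample 1 stood somewhat apart: across genes, its log2 CPM (counts divided by the library total) correlated with the other CON samples at 0.983 and 0.985, against 0.991 to 0.992 for all other sample pairs of the same group. Genes were compared with edgeR's quasi-likelihood test, fitted to the 13438 genes that passed a filter on low counts. A gene was called when its Benjamini-Hochberg adjusted p was below 0.05 and its log2 fold change lay beyond 0.58 in either direction. Of all tested genes, 4.96% were called, 2.67% as higher and 2.29% as lower in RA, and 24% had an unadjusted p below 0.05.

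Among the 9 complement genes, C3 rose in RA, from 0.131 ± 0.0117 to 0.365 ± 0.0947 FPKM (SD, n = 3 per group), a change at a low level of expression. The genes of the C1 proteases, C1r and C1s, were well expressed at nearly the same level in both groups. The inhibitor genes Serping1, Cd55 and Cd59 were not called. Cfd gave a few counts in each CON sample and none in RA, and C4a had between 0 and 3 reads per sample. Of the 6 genes that passed the filter, 1 was called higher, 0 were called lower and 1 had FPKM ranges that did not overlap between the groups, in the last case against 32.2% of all tested genes. The median log2 fold change of the 6 was 0.071, against -0.0057 over all tested genes. Whether the share of 1 in 6 differs from that background was not tested.

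**Figure D1:**
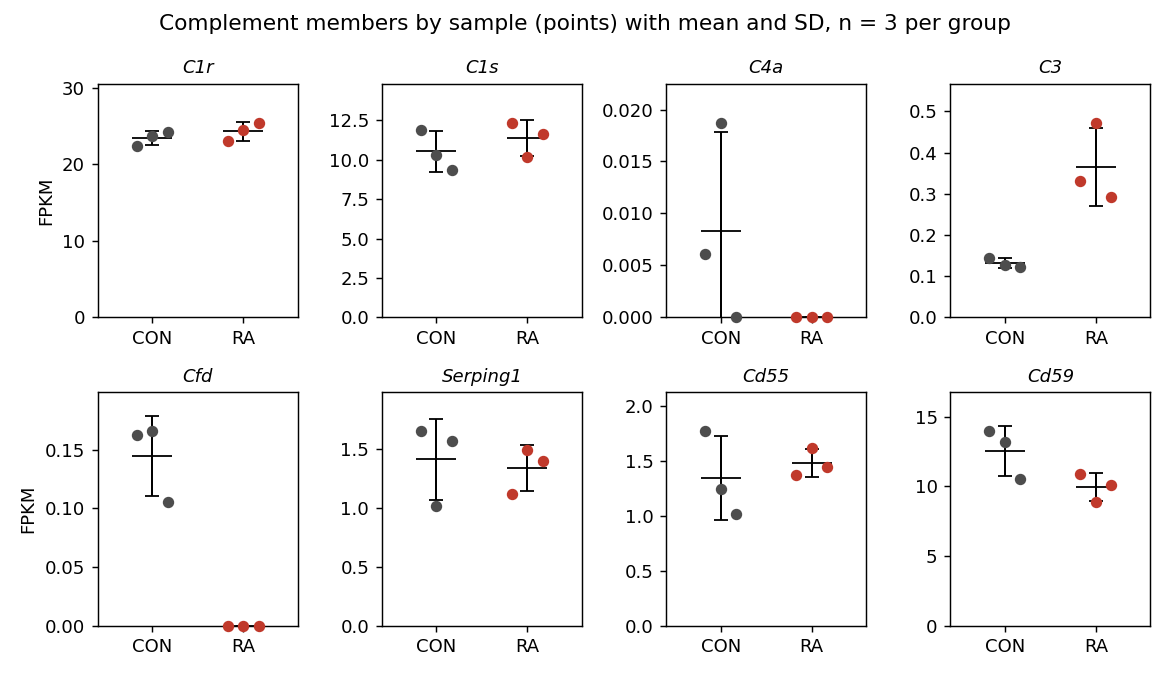
FPKM (y axis, linear, a scale of its own for each gene) of the 8 matched complement genes in the 3 CON and 3 RA samples; points are samples, and the horizontal bar and whiskers are the mean and SD (the lower whisker of C4a in CON is cut at 0). C3 is higher in each RA sample than in any CON sample, Cfd lies at 0 in all 3 RA samples, and the other 6 genes overlap between the groups.

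By level per gene length, averaged over the 6 samples, C1r came first with 23.9 FPKM. It was followed by Cd59 with 11.3 and C1s with 11.0, whose ranges overlapped. Cd59 was the higher of them in each of the 3 CON samples and C1s in each of the 3 RA samples, an order that was not tested. Cd55 with 1.41 and Serping1 with 1.38 formed a lower level, and their ranges overlapped too. C3 had 0.248, Cfd 0.0722 and C4a 0.00414 FPKM. The steps from C1r to Cd59, from C1s to Cd55 and from Serping1 to C3 were each larger than the spread over the 6 samples.

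C1r (ENSRNOG00000011796) encodes the protease that cuts and activates C1s. It had 22.4, 23.8 and 24.2 FPKM in the CON samples and 23.0, 24.5 and 25.5 FPKM in the RA samples. These ranges overlapped in part, and the log2 fold change was 0.040, with a 95% interval from -0.12 to 0.20 (adjusted p = 0.766, edgeR). C1s (ENSRNOG00000011971) encodes the protease that cleaves C4 and C2. It had 11.9, 10.3 and 9.38 FPKM in CON and 12.4, 10.2 and 11.7 FPKM in RA. Its groups overlapped as well, with a log2 fold change of 0.10 and an interval from -0.14 to 0.34 (adjusted p = 0.599, edgeR). For both proteases the intervals lay inside the limit of 0.58, with a fold of 1.03 for C1r with an interval from 0.921 to 1.15. The ratio of C1r to C1s FPKM within a sample was 2.26 ± 0.356 in CON and 2.15 ± 0.275 in RA (SD of 3), and it lay between 1.87 and 2.59 in single samples.

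C4a (ENSRNOG00000047657) encodes the C4 protein, which the C1 complex and the lectin pathway cleave. Its counts were 1, 3 and 0 in CON and 0 in each RA sample, too few for the test (exact permutation test on CPM, two-sided, p = 0.4, where 0.1 is the smallest p that 3 against 3 samples allow). C4a has a near-identical neighbour, C4b, between which reads can be split. C4b was also low, with 0.102 ± 0.0112 FPKM in CON and 0.106 ± 0.0474 FPKM in RA (SD of 3 samples), from 8 to 22 reads per sample. Reads that fit both copies may be missing from either count, so the level of C4 as a whole is uncertain.

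C3 (ENSRNOG00000046834) encodes the central component, whose cleavage product binds to target surfaces. It had 0.144, 0.128 and 0.122 FPKM in CON and 0.331, 0.473 and 0.293 FPKM in RA. Each RA sample lay above each CON sample, and RA sample 2 was the highest. These levels rest on 23, 20 and 24 reads in CON and on 51, 72 and 47 reads in RA. The log2 fold change was 1.46 (standard error 0.27, 95% interval 0.84 to 2.08), a 2.75-fold higher level, and edgeR gave an adjusted p of 0.0111. The call was lost without CON sample 2, where the log2 fold change was 1.44 (adjusted p = 0.052, edgeR), and without RA sample 2, where it was 1.23 (adjusted p = 0.0536, edgeR). Leaving out CON sample 1 gave 1.53 (adjusted p = 0.00626, edgeR). Over the alternatives its adjusted p ran from 6.92e-04 to 0.0536 (edgeR, limma or DESeq2), and on the log2(FPKM + 1) scale its difference of 0.27 fell below the fold limit. Even in RA the level of C3 stayed far below that of C1r: the C1r to C3 ratio of FPKM was 180.1 ± 22.7 in CON and 69.5 ± 17.5 in RA (SD of 3).

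The promoters of C3, the only member that was called, and of C1r, the most abundant member and one with nearly equal levels, are shown as the 250 bases before the gene start, 5′ to 3′ on the strand of the gene. Both are RefSeq sequences of the rat assembly GRCr8, while the submitters' processing notes name the build Rnor_6.0 for the counts. The C3 window is chr9:2201340-2201589 on the minus strand and the C1r window is chr4:159098763-159099012 on the plus strand.
C3: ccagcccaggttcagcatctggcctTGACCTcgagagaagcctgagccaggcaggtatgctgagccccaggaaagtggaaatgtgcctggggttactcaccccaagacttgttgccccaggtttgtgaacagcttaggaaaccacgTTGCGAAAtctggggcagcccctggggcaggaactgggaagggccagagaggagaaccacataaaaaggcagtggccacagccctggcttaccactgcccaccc
C1r: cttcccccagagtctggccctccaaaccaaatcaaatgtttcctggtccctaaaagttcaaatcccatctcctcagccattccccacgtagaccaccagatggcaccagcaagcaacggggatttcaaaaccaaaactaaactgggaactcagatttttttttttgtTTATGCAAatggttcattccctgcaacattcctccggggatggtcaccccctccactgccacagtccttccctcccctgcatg
Capitals mark every match to 6 motifs searched on both strands: AGGTCA, the core site of nuclear receptors, TTGCNNAA (C/EBP), TTCNNNGAA (STAT), TATAAA, the NF-κB consensus, and direct repeats of retinoic acid receptor core sites spaced by 1, 2 or 5 bases. The C3 window held AGGTCA on the opposite strand, with its first base at position -225, and TTGCNNAA at position -104, where -1 is the base just before the start. The C1r window held TTGCNNAA on the opposite strand, at position -83. Over 33469 promoter windows of the same length, AGGTCA occurred in 14.1%, TTGCNNAA in 9.22%, TTCNNNGAA in 7.67%, TATAAA in 12.9%, the NF-κB consensus in 6.33% and the spaced direct repeats in 0.651%. Promoters of C4a, Cfd and Cd55 were also in the table, so that 5 of the 9 members could be searched, and these 3 windows held none of the 6 motifs. A match is a description of the letters and not a site shown to be bound.

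Cfd (ENSRNOG00000033564) encodes factor D, the adipsin of fat cells, which cleaves factor B in the alternative pathway. Its counts were 5, 5 and 4 in CON, or 0.163, 0.166 and 0.105 FPKM, and 0 in each of the 3 RA samples. The groups did not overlap, but the gene fell below the filter on low counts and was not tested with the others. Summed over a group, 14 reads in CON correspond to 0.142 CPM, while the 3 reads that a count of 0 allows in the summed RA samples correspond to 0.0333 CPM. The ratio of these CPM values was 4.25. It allows for counting error in RA only and leaves out that of the 14 CON reads and the spread between samples. It is therefore not a lower bound on the fold change. The exact permutation test on CPM gave p = 0.1 (two-sided), the smallest that this design allows. With no filter on low counts, edgeR gave Cfd an adjusted p of 0.080 (unadjusted p = 0.00694), which missed the threshold.

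Serping1 (ENSRNOG00000007457) encodes the C1 inhibitor, which inactivates C1r and C1s. It had 1.65, 1.02 and 1.57 FPKM in CON and 1.12, 1.50 and 1.40 FPKM in RA. Both the lowest and the highest sample were CON samples, and the log2 fold change was -0.094 with an interval from -0.63 to 0.45 (adjusted p = 0.842, edgeR). The sign of this value turned above 0 when CON sample 1, CON sample 3 or RA sample 1 was left out, with the highest at 0.024. Per gene length, C1r exceeded its inhibitor in every sample, with C1r to Serping1 ratios from 13.5 to 23.3.

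Cd55 (ENSRNOG00000003927) encodes the membrane protein that speeds the decay of C3 convertases. It had 1.77, 1.24 and 1.02 FPKM in CON and 1.37, 1.62 and 1.44 FPKM in RA. The RA samples lay within the CON range, and the log2 fold change was 0.13 with an interval from -0.35 to 0.61 (adjusted p = 0.751, edgeR). Without CON sample 3 it was -0.032, so no direction can be given.

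Cd59 (ENSRNOG00000042821) encodes the membrane protein that blocks the assembly of the attack complex. It had 14.0, 13.2 and 10.5 FPKM in CON and 10.9, 8.88 and 10.1 FPKM in RA. CON sample 3 lay within the RA range and the other CON samples lay above it. The log2 fold change was -0.34 (standard error 0.124, 95% interval -0.63 to -0.061), with an unadjusted p of 0.0228 and an adjusted p of 0.135 in edgeR's test, so that Cd59 was not called. All alternatives gave it a negative sign, between -0.45 and -0.26, and the adjusted p passed 0.05 in 1 of them, without CON sample 3 (0.0452, edgeR, range 0.0452 to 0.382), where the fold change still lay inside the limit.

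The rest of the pathway was taken from a list of 43 further complement genes. Of these, 38 matched a gene and 18 passed the filter, of which 2 were called, both higher in RA and both among the 4 tested receptor genes: Itgax and Cd93. Over all tested genes 2.67% were called higher, and whether the list differs from that was not tested. A further 2 genes, Clu and Masp1, had an adjusted p below 0.05 and a change inside the fold limit. By the adjusted p alone, 4 of the 18 passed, against 1319 of all 13438 tested genes, and this difference was not tested either. The median log2 fold change of the 18 was 0.093.

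**Figure D2:**
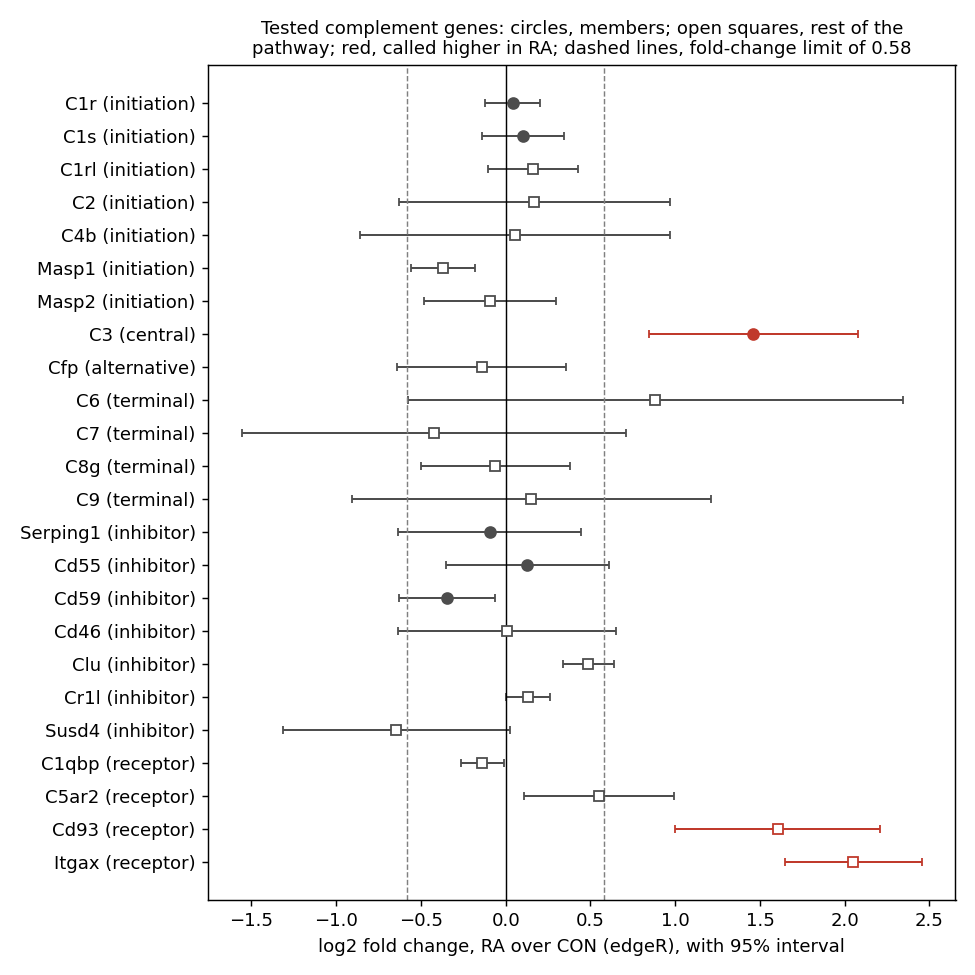
Log2 fold change of RA over CON (x axis) with its 95% interval from edgeR for the 24 complement genes that were tested, ordered by role; filled circles are the members, open squares the rest of the pathway, red marks called genes and the dashed lines the limit of 0.58. C3 at 1.46, Cd93 at 1.61 and Itgax at 2.05 are the called genes, and C1r and C1s lie close to 0 with narrow intervals.

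Clu encodes clusterin, a secreted chaperone that also binds the attack complex. It had 34.2, 34.4 and 34.5 FPKM in CON and 46.4, 47.5 and 52.0 FPKM in RA. The groups did not overlap, and its log2 fold change of 0.49 (edgeR, adjusted p = 0.00264) lay inside the limit of 0.58. Cr1l, which encodes the rodent membrane inhibitor Crry, was the membrane inhibitor with the highest level, at 36.3 ± 1.41 FPKM in the CON and 40.1 ± 0.871 FPKM in the RA samples (SD of 3). Its difference of 0.13 on the log2 scale was not called (adjusted p = 0.208, edgeR). In FPKM, Cr1l exceeded Cd59 2.67- to 3.29-fold in CON and 3.76- to 4.43-fold in RA, and Cd55 between 21.1- and 34.0-fold over all samples. The Cr1l to Cd59 ranges did not overlap, but neither gene was called and the ratio was not tested. Of all tested genes, 32.2% had FPKM ranges without overlap.

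Of the receptors, Itgax, the alpha chain of complement receptor 4, had 0.815, 0.667 and 0.557 FPKM in CON and 2.59, 2.57 and 3.33 FPKM in RA. The RA samples stood well above the CON samples, and the log2 difference was 2.05 (edgeR, adjusted p = 2.37e-04). Its partner chain Itgb2 had 0.046 ± 0.0154 FPKM without RA and 0.0492 ± 0.0374 FPKM with it (SD of 3 samples) and did not pass the filter. Cd93, a membrane protein first described as a C1q receptor, had 0.103, 0.111 and 0.0996 FPKM in CON and 0.397, 0.279 and 0.292 FPKM in RA. The groups did not overlap, and the rise was 1.61 on the log2 scale (edgeR, adjusted p = 0.00654) at a level as low as that of C3. On the log2(FPKM + 1) scale the difference was 0.26, below the fold limit, and the call was lost. C5ar2, the second receptor of C5a, had 2.31 ± 0.455 FPKM in CON and 3.42 ± 0.372 FPKM in RA (SD of 3 samples), and the difference of 0.55 on the log2 scale did not pass the test (adjusted p = 0.127, edgeR). C1qbp, a mitochondrial protein that also binds C1q, was the most abundant gene of the list, at 180.3 ± 7.26 in CON and 165 ± 1.9 FPKM in RA (SD of 3 samples; adjusted p = 0.184, edgeR).

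**Figure D3:**
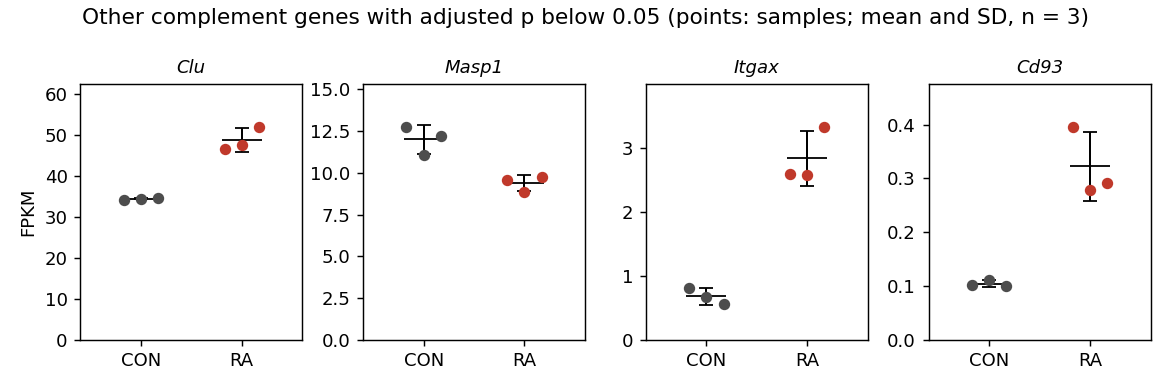
FPKM (y axis, linear, a scale of its own for each gene) of the 4 further complement genes with an adjusted p below 0.05 in edgeR's test; points are samples, the bar and whiskers the mean and SD of 3. Clu, Itgax and Cd93 are higher in all RA samples and Masp1 is lower in all RA samples, with Clu and Masp1 inside the fold limit.

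Masp1, which encodes a protease of the lectin pathway, was the next initiation gene after C1r and C1s by the mean over the 6 samples, though above C1s in each CON sample. It had 12.8, 11.0 and 12.2 FPKM in CON and 9.56, 8.82 and 9.74 FPKM in RA, without overlap. Its log2 fold change of -0.37 (adjusted p = 0.0247, edgeR) was not a call, and its adjusted p was above 0.05 without CON sample 3 and without any one of the RA samples (0.0589 to 0.127, edgeR). The other genes above 1 FPKM on average were C1rl with 2.90, C8g with 2.21, Masp2 with 1.38 and Cfp with 1.15, and none of them passed the test. C8g, a lipocalin chain of C8, stood alone among the terminal components that matched a gene: C5, C6, C7, C8b and C9 lay between 0 and 0.217 FPKM in all samples. The terminal component C8a had no match. The recognition genes C1qa, C1qb and C1qc had between 0 and 5 reads per sample, and the receptor gene C3ar1 had between 0 and 3. These low genes and Itgb2 were chosen for mention after their values were seen. The cultures thus held transcripts of the C1 proteases and of several inhibitors above 1 FPKM, while those of C1q, C3 and the matched terminal components other than C8g stayed below it.

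None of 7 transcription factor genes known to act on complement promoters (Cebpb, Cebpd, Stat3, Irf1, Nfkb1, Rela and Relb) was called, with 0 calls by edgeR, 0 genes at an unadjusted p below 0.05 and 0 calls by DESeq2. With 4.96% of all tested genes called, 0 of 7 is no result about these genes. Cebpb varied widely among samples, with 9.59 to 34.2 FPKM in CON, and its 95% interval ran from -0.58 to 1.23 on the log2 scale.

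Markers of the cell types that the cultures could hold are given beside these values. The cells carried chondrocyte markers: Col2a1 lay between 3023 and 6135 FPKM and Acan between 233 and 783 FPKM. Of 9 such markers, 8 were called lower in RA (Comp in 4 and Col11a1 in 5 of 6 fits that each left out a sample, the other 6 in all), and their summed level was 7871 to 9780 FPKM in CON and 4977 to 5302 in RA. Of 11 macrophage markers, 10 matched, 5 passed the filter and 0 were called by edgeR, with 0 called by DESeq2. With 4.96% of all tested genes called, 0 of 5 is no result about these markers. At an unadjusted p below 0.05 were 2 of these 5, against 24% of all tested genes. They were Cd14 with a log2 difference of 0.23 and Laptm5 with one of -0.61 (0.96 ± 0.207 FPKM in CON, 0.633 ± 0.15 FPKM in RA, SD of 3). The summed level of the 10 was 14.7 to 16.6 FPKM in CON and 17.6 to 18.8 in RA, most of it from Cd14. Ptprc lay at or below 0.027 FPKM, Csf1r at or below 0.237, and Adgre1 at 0 in 5 of the 6 samples, while Cd68 lay between 0.912 and 1.30 FPKM. Macrophages express C3, C1q, Itgax and Cd93, and the part of these markers in the values of those genes was not tested. In bulk samples, a change in the share of a cell type and a change in RNA per cell cannot be told apart.

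Of 6 adipocyte markers, Fabp4 was called higher (log2 fold change 0.81) and Lpl lower (-0.74), calls that held in 1 and 2 of the 6 fits that each left out a sample. With the replicate number as a block, the Fabp4 call was lost (adjusted p = 0.0556, edgeR). The summed level of the 6 was 3.75 to 5.24 FPKM in CON and 5.36 to 6.42 in RA, and Adipoq and Plin1 stayed below 0.1 FPKM. The part of these markers in the values of Cfd was not tested. Of 10 fibroblast markers, 9 matched and 1, Postn, was called lower (-1.28). A further 2 had an adjusted p below 0.05 inside the fold limit, Pdgfra with a log2 difference of 0.44 and Dcn with one of -0.41, and 5 of the 9 had an unadjusted p below 0.05, against 24% of all tested genes. The collagens lay at high levels, with Col1a1 at 2415 to 3588 and Col3a1 at 899 to 1095 FPKM. The summed level of the 9 was 3964 to 5083 FPKM in CON and 4987 to 5224 in RA. Of 6 endothelial markers, 4 matched and 1 passed the filter, with 0 called by edgeR or DESeq2 and 0 at an unadjusted p below 0.05. With 1 gene tested, this is no result about the list. The sum of the 4 was at most 0.178 FPKM.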

How the data were processed

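Poly(A) RNA of 3 CON and 3 RA samples was sequenced on an Illumina HiSeq instrument after NEBNext Ultra library preparation. Per gene, the deposited value was a raw count of reads in each sample, not normalized by the authors. The authors also gave FPKM, which divides the count by gene length and library total. The submitters' processing notes list HISAT2, HTSeq 0.13.5 and Rnor_6.0; whether strand was used in counting is not given in the sources used here, so overlapping and antisense genes, and near-identical copies such as C4a and C4b, are uncertain.

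Samples were grouped by their labels. Counts were tested with edgeR 4.0.16 (R 4.3.3; glmQLFit, glmQLFTest, TMM, filterByExpr with a minimum count of 10, no covariates) across all genes, and standard errors and 95% intervals were derived from its F statistic. Alternatives used limma 3.58.1 on log2(FPKM + pseudocount) with pseudocounts of 0.1, 1 and 0.01, DESeq2 1.42.0, RLE size factors, other filters on low counts, each sample left out, a replicate block and other call rules. A floor of 3 counts, for counting error only, stood for a count of 0. Total counts ran from 29370025 to 38007486, so that 3 counts correspond to 0.0789 to 0.102 CPM in a sample. The statistics were tested on simulated data. No 2 samples of a group agreed within sampling noise.

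The members and gene lists (further complement genes, transcription factors, and chondrocyte, macrophage, fibroblast, adipocyte and endothelial markers) were chosen with earlier results of these data known. Genes named were all members, called genes of the lists, further complement genes with a mean of at least 1 FPKM, and defining markers. Other named genes (C4b, Itgb2, Cebpb, Cd14, Adgre1, the C1q genes, Laptm5, Pdgfra, Dcn, C3ar1 and C5 to C9 other than C8g) were chosen after their values were seen. Of the gene lists, 2 genes are not reported here and were left out of all list counts.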

Additional observations from a re-analysis of the deposited data

How the results depend on the processing

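Leaving out 1 sample at a time, the number of called complement members ran from 0 to 1, being 0 without CON sample 2 and without RA sample 2, and that of further complement genes stayed at 2. With limma on log2(FPKM + 1), 0 members were called, since this pseudocount is larger than the level of C3 in every sample, and 1 further complement gene was called, with C3 at 0.27 and Cd93 at 0.26 on that scale. With the adjusted p as the only criterion, 4 further complement genes passed in place of 2, the added ones being Clu and Masp1. By the same rule, 1319 of all 13438 tested genes passed. With the replicate block, the counts were 1 and 2, as without it, and of the named genes' calls it ended that of Fabp4 (0.814, adjusted p = 0.0556, edgeR) and no other. Whether same-numbered CON and RA samples share an origin is not given. Their deviations from the group means correlated at 0.093, -0.012 and 0.012, which cannot decide this with 3 samples per group. The sign turned for Serping1 (-0.285 to 0.024 over the fits with 1 sample left out; above 0 after removal of CON sample 1, CON sample 3 or RA sample 1), for Cd55 (-0.032 to 0.372; below 0 after removal of CON sample 3) and for C8g (-0.155 to 0.013; above 0 after removal of RA sample 1); none of these genes was called under any alternative. Alternatives were tabulated for 17 complement genes: the tested members, and tested further genes that were called or had a mean of at least 1 FPKM. Of their 238 values, 229 kept direction and side of the threshold. Most of the 17 were not called, and for these it means only the same sign and still no call. The other values were 4 lost calls, 3 of C3 and 1 of Cd93, and 5 changes of sign. The few reads on C3, Cfd and C4a and the 3 samples per group limit what could be detected.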
